A study of Mus musculus with 8 samples.

Results

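The 10 genes described here encode matrix-remodelling proteases of the fetal lung and their inhibitors: the matrix metalloproteinases (MMPs) Mmp2, Mmp11, Mmp14, Mmp15 and Mmp23, the tissue inhibitors of metalloproteinases (TIMPs) Timp1, Timp2 and Timp3, and the related proteases Adamts1 and Adam17. They were chosen by symbol, and all 10 were found among the 55385 gene identifiers of the count files. Whole lungs of C57BL/6 mouse fetuses at E18.5, late in gestation, were profiled by RNA sequencing, with 4 control lungs and 4 lungs after tracheal occlusion (TO), an operation that ties off the fetal trachea so that lung fluid is retained. In the study's mouse model the ligature was passed through the uterine wall at an earlier fetal age and also closed one carotid artery and one jugular vein, so that the TO lungs differ from controls by all of these. Each library is 1 lung. The labels do not say which fetuses shared a dam, and the p-values therefore measure only the spread between these lungs.

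MMPs are secreted or membrane-anchored zinc enzymes that cut collagens, elastin, proteoglycans and cell surface proteins. They are made as inactive precursors, and TIMPs block the active enzymes by binding in the catalytic cleft. In the developing lung most of these genes are transcribed in mesenchymal cells, and the balance of proteases and inhibitors takes part in the branching of airways and the formation of alveoli. ADAMTS enzymes cut proteoglycans such as versican, and ADAM17 releases growth factors and cytokines from the cell surface.

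The number of read pairs assigned to genes was 22822261 to 35002061 in 7 libraries and 270078 in TO 1, where 1 pair amounted to 3.44 CPM (read pairs scaled to a common library size). The main comparison used controls 1, 2 and 4 and TO lungs 2, 3 and 4, the specimens of the study's own expression figure. Control 3 and TO 1 are given for every gene and enter the fits with 7 libraries (all but TO 1) and with 8. Lung identity was clear from the surfactant gene Sftpc, at 4431 CPM or more in every library. Summed CPM of 7 mesenchymal markers lay between 6167 and 7762 in the 7 deep libraries, and 0 of the 7 markers were called. Single markers could spread more. Lum ran from 14.1 CPM in control 2 to 60.1 CPM in TO 4, and Dcn from 75.5 to 197 CPM in the same lungs. Summed CPM of 4 cardiac muscle markers was 563 in control 1 and 339.7 in control 2, against 1924 to 3994 in the other deep libraries. Hepatocyte markers (3 genes) summed to 743 CPM in control 1, 274 CPM in TO 4 and 75.7 CPM in TO 1, against 2.14 to 24.4 CPM in the other libraries. In TO 1 the mesenchymal sum was 11492.5 CPM, but its markers did not move together. Col1a1, Col1a2, Col3a1, Dcn and Lum were above every deep library there, and Pdgfra (189 CPM) and Tcf21 (103 CPM) were below every one. The sum of 4 skeletal muscle markers was 2348 CPM in TO 1, against 12.2 to 275 in the deep libraries. For 3 cartilage markers it was 79.2 CPM in TO 1, against 6.04 to 25.9. For 5 epithelial markers it was 5825 CPM in TO 1, against 7617 to 16157. The part of these tissues in the results was not tested. In whole-lung RNA, fewer cells of a type and less RNA per cell cannot be told apart.

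No member passed the test for a difference between control and TO lungs, given the spread between libraries. In edgeR's quasi-likelihood test on the 6 libraries, 0 of the 10 members had an adjusted p under 0.1, and 0.00% of the 21859 genes tested did. None of the 10 had an unadjusted p under 0.05, against 1123 genes or 5.14% of all genes. DESeq2 called 44 genes, or 0.239% of those it adjusted, with no member among them, and limma-voom called 0. The unadjusted p of DESeq2 was under 0.05 for 1 member, Adamts1 (DESeq2 adjusted p = 0.722), against 6.11% of all genes. The CPM ranges of the control and TO groups overlapped for all 10 members, whereas they did not overlap for 10.9% of all genes. Log2 fold changes were above 0 for 4 members, with a median over the members of -0.068, against a median of -0.0045 over all genes, of which 49.3% were above 0. In the fit to 6 libraries, the 95% intervals of the members' fold changes reached at most 1.65-fold upward, for Timp3, and down to 0.547-fold, for Timp1. Changes of these sizes are therefore not shown to be absent. With all 8 libraries the standard errors were larger, 0.34 against 0.20 for Timp3 and 0.42 against 0.34 for Timp1.

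**Figure D1:**
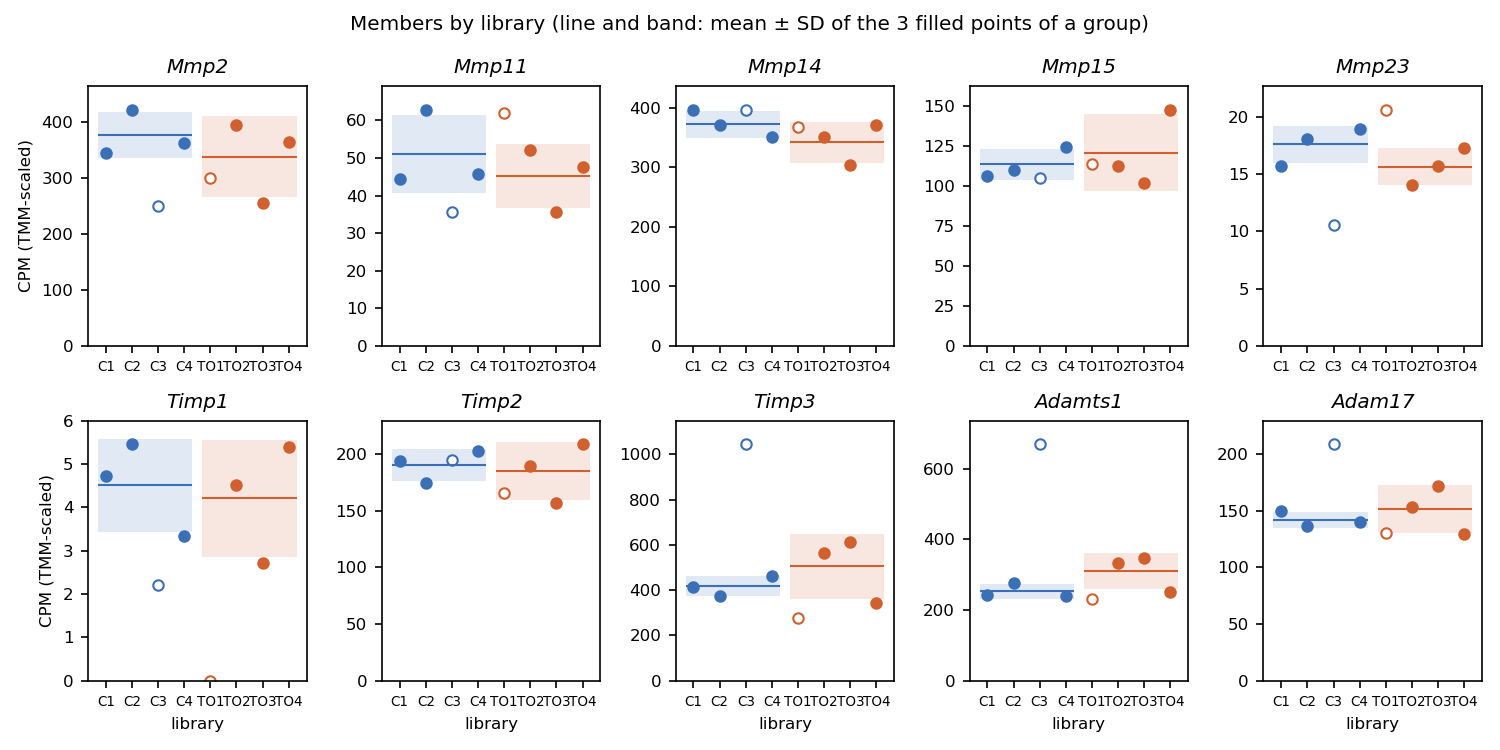
CPM after TMM scaling (y axis) of each member in each library (x axis; C, control); filled points are the 6 libraries of the main comparison, open points control 3 and TO 1, and the line and band are the mean and SD of the 3 filled points of a group. Control 3 stands above every other lung for Timp3 (1044 CPM), Adamts1 (669 CPM) and Adam17 (209 CPM), and below the other lungs for Mmp23 (10.6 CPM).

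Mmp2, the gelatinase that cuts denatured collagen and collagen IV, was the most abundant MMP per length. Its level was 345, 422, 249 and 362 CPM in controls 1 to 4 and 299.5, 393, 255 and 364 CPM in TO 1 to 4. The lowest value of each group was in the lung numbered 3, and the groups overlapped. TO lungs were 0.16 lower on the log2 scale (SE 0.17, edgeR adjusted p = 0.940, 95% interval -0.54 to 0.22). With all 8 libraries the difference was -0.064.

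Mmp14 encodes the membrane-anchored MMP that activates the MMP2 precursor at the cell surface. It was measured at 396, 372, 397 and 351 CPM in the controls and 368, 351, 305 and 371 CPM in the TO lungs. Its highest and lowest deep libraries differed by only 1.30-fold, and TO 3 was the 1 lung under all controls. The log2 difference was -0.12 (SE 0.12, edgeR adjusted p = 0.931) in the 6 libraries and -0.12 in all 8. Over the 7 deep libraries the SD of its log2 CPM was 0.13, at percentile 8.49 of the genes compared, whose median was 0.39.

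Mmp15, a second membrane-anchored MMP, had 107, 109.8, 105 and 125 CPM in the controls and 114, 113, 102 and 148 CPM in the TO lungs. TO 4 alone exceeded the highest control. The log2 difference was 0.089 (SE 0.16, edgeR adjusted p = 0.970), and it was -0.081 without TO 4.

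Mmp11, known as stromelysin-3 and made by stromal cells during tissue remodelling, had 44.3, 62.9, 35.6 and 45.8 CPM in the controls and 62.0, 52.2, 35.7 and 47.5 CPM in the TO lungs. The highest deep library was control 2, and on these counted pairs the lungs numbered 3 were nearly equal and lowest in both groups. Its log2 difference was -0.17 (SE 0.19, edgeR adjusted p = 0.939) in the 6 libraries and 0.0042 in all 8.

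Mmp23, an MMP anchored in the membrane until it is freed by cleavage, was the least abundant MMP member, at 15.8, 18.1, 10.6 and 19.0 CPM in the controls and 20.7, 14.1, 15.7 and 17.3 CPM in the TO lungs. The TO 1 value rests on 6 read pairs, with an exact Poisson 95% interval of 7.58 to 45.0 CPM that covers counting error only. The log2 difference was -0.17 (SE 0.17, edgeR adjusted p = 0.937) in the 6 libraries and 0.024 in all 8.

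Among the inhibitors, Timp2 is the partner with which MMP14 holds the MMP2 precursor. It was present at 194, 175, 194 and 203 CPM in the controls and 165, 189, 157 and 208 CPM in the TO lungs. The groups overlapped and their means were 190.4 ± 14.2 CPM and 185 ± 26.0 CPM (SD, n = 3 each). The log2 difference was -0.042 (SE 0.13, edgeR adjusted p = 0.982). Like Mmp14, it varied little, with an SD of 0.14 on the log2 scale over the 7 deep libraries.

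Timp3 encodes the TIMP that stays bound to the extracellular matrix and that also inhibits ADAM17 and ADAMTS enzymes. Its level was 414, 376, 1044 and 462 CPM in the controls and 275, 565, 611 and 342 CPM in the TO lungs. Control 3 was the highest of all 8, TO 2 and TO 3 came next, and TO 4 and TO 1 lay below every control. In the 6 libraries the log2 difference was 0.27 (SE 0.20, edgeR adjusted p = 0.910, 95% interval -0.17 to 0.72), with means of 417 ± 43.3 CPM in control and 506 ± 144 CPM in TO lungs (SD, n = 3 each). When control 3 was added the difference was -0.18 (SE 0.36), and with all 8 libraries it was -0.34 (SE 0.34). Without TO 4 it was 0.50 (SE 0.13, adjusted p = 0.194).

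Timp1, the inducible soluble TIMP, was scarce: 4.73, 5.46, 2.22 and 3.35 CPM in the controls and 0, 4.52, 2.72 and 5.39 CPM in the TO lungs. In TO 1 no pair was assigned to it, which by a floor of 3 pairs allows up to 10.3 CPM, more than any other lung held. The log2 difference was -0.094 (SE 0.34, edgeR adjusted p = 0.982), with the widest 95% interval of the members, -0.87 to 0.68, and it was 0.10 when control 3 was added.

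Adamts1 encodes a secreted protease of versican and aggrecan. Its level was 242, 277, 669 and 239 CPM in the controls and 231, 332, 348 and 251 CPM in the TO lungs. As for Timp3, control 3 was far above the rest and TO 3 and TO 2 followed it. The log2 difference in the 6 libraries was 0.29 (SE 0.14, unadjusted p = 0.0584, edgeR adjusted p = 0.907, 95% interval -0.013 to 0.60), with means of 253 ± 21.0 CPM in control and 310.5 ± 52.1 CPM in TO lungs (SD, n = 3 each). It was -0.20 (SE 0.35) with control 3, -0.28 (SE 0.31) with all 8 libraries and 0.43 (SE 0.12, adjusted p = 0.209) without TO 4.

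Adam17, the sheddase of tumour necrosis factor and of ligands of the epidermal growth factor receptor, had 149.6, 136, 209 and 140.4 CPM in the controls and 131, 153, 172 and 129 CPM in the TO lungs. Control 3 was again the highest and TO 3 the second highest. The log2 difference was 0.090 (SE 0.12, edgeR adjusted p = 0.957) in the 6 libraries, -0.067 with control 3 and -0.10 with all 8.

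**Figure D2:**
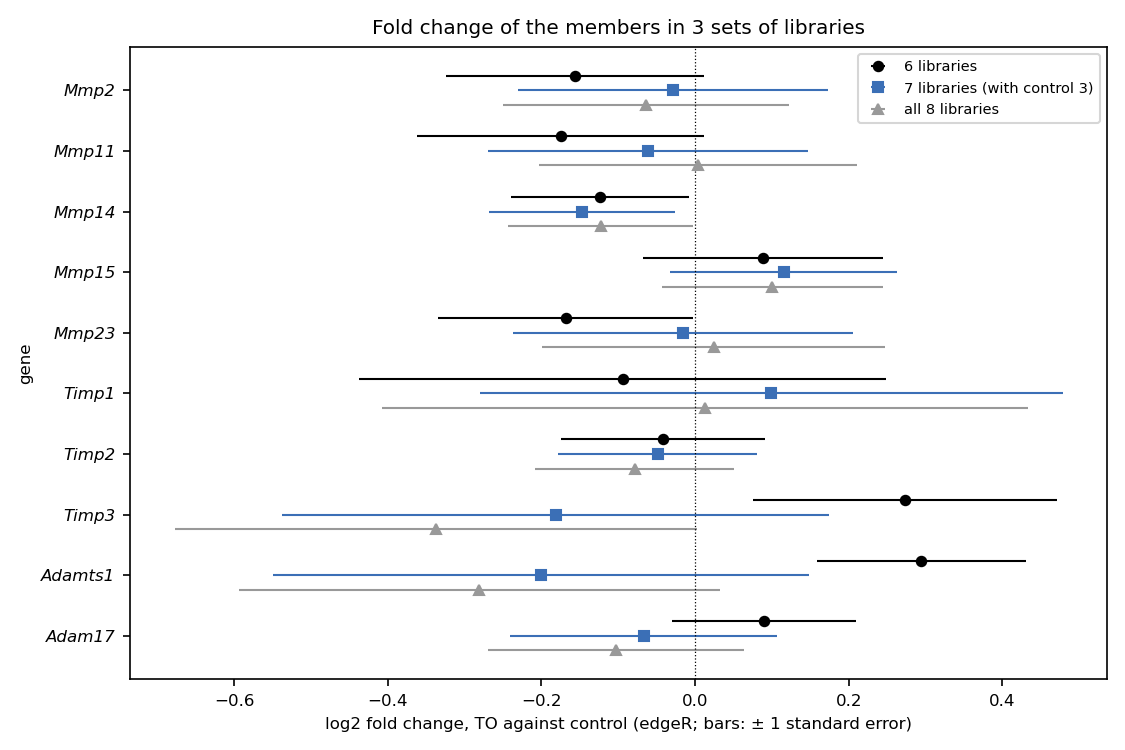
Log2 fold change of TO against control lungs (x axis; bars, 1 standard error on each side) of each member (y axis) in edgeR fits to 6 libraries (circles), to 7 including control 3 (squares) and to all 8 (triangles). Timp3 (0.27, -0.18 and -0.34) and Adamts1 (0.29, -0.20 and -0.28) lie right of 0 in the 6 libraries and left of it in the other fits.

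Several members shared a pattern across single lungs. Control 3 and TO 3 were the 2 highest of the 7 deep libraries for Timp3, Adamts1 and Adam17, a pattern shared by 11.6% of all genes tested. The same 2 lungs were the 2 lowest for Mmp2, Mmp11, Mmp15 and Timp1, as for 13.8% of all genes. For Mmp11 this held for the counted pairs only. With the pairs shared with Chchd10, given below, control 1 was the lowest. In control 3, Timp3 stood 1.04 and Adamts1 1.08 above their mean log2 CPM over the 7 libraries, and 2.51% and 2.23% of 15845 genes stood further up. Timp1 stood 0.78, Mmp23 0.55 and Mmp2 0.43 below theirs. Mmp14 (0.13) and Timp2 (0.048) were, with Mmp15 (-0.12), the nearest to theirs. Marker lists also set these 2 lungs apart. Summed CPM of 3 cell cycle genes was 324 in control 3 and 311 in TO 3, against 655 to 1252 in the other deep libraries. Summed CPM of 3 interferon response genes was 67.2 and 124, against 14.4 to 31.5. Their part in the members' values was not tested.

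These deviations of control 3 were recomputed after removing, per library, a smooth trend of log2 CPM on exon length and GC content, a correction chosen after the data were seen. They were then 0.98 for Timp3, 1.09 for Adamts1 and 0.40 for Adam17, and -0.33 for Mmp2, -0.23 for Mmp11, -0.40 for Mmp23 and -0.71 for Timp1. For Mmp15 the value went from -0.12 to -0.030, and control 3 was then no longer among its 2 lowest libraries. The TMM scaling factor of control 3 was 0.919, the lowest of the 8 libraries, against 0.987 to 1.08 in the others.

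**Figure D3:**
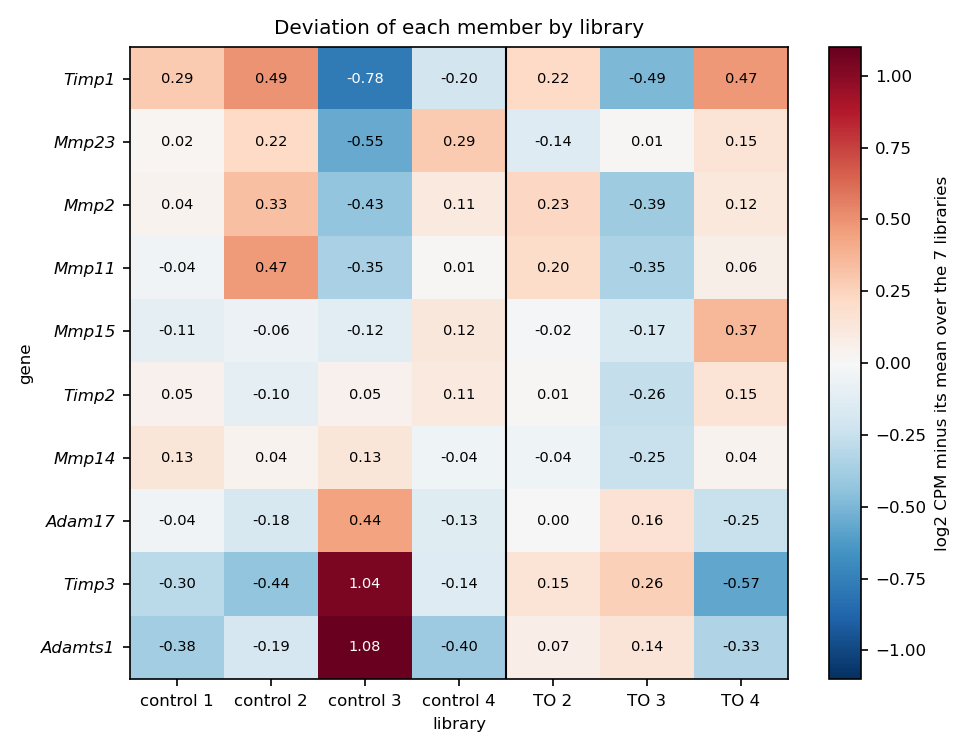
Log2 CPM minus its mean over the 7 deep libraries (colour and printed value) for each member (y axis, ordered by control 3) and library (x axis; the line separates control from TO lungs). Control 3 carries the extremes, from -0.78 for Timp1 to 1.08 for Adamts1, and TO 3 has the same sign for Timp1, Mmp2, Mmp11, Mmp15, Adam17, Timp3 and Adamts1.

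The specimen names carry a number that links lungs across the groups: 1 number is shared by controls 1 and 4 and TO 1 and 4, another by control 2 and TO 2, and another by control 3 and TO 3. What it stands for was not given in the sources used here. Within these sets, in that order and leaving out TO 1, the TO minus control difference of Timp3 was -0.35, 0.59 and -0.77 on the log2 scale. For Adamts1 it was 0.062, 0.26 and -0.94, and for Adam17 -0.16, 0.17 and -0.28. The difference of Mmp2 was 0.043, -0.10 and 0.035, and that of Mmp14 was -0.0076, -0.082 and -0.38. Only Mmp14 had the same sign in all 3 sets, and without TO 1 each set holds 1 TO lung, so that these are values with no test.

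The counted levels of Timp3 and Mmp11 leave out read pairs on exons that they share with another gene. The files assign a read pair to a gene only if its position fits a single gene, without regard to strand, and pairs on exons shared with another gene are set aside. Timp3 lies on the plus strand of chromosome 10 at 86300372 to 86349506 (GRCm38), inside Syn3, a synapsin gene on the minus strand, and 21.3% of its exon bases are also annotated as Syn3 exon. Counting each strand on its own recovered the shared pairs, which were 43.5% to 53.4% of the counted and shared pairs of Timp3 together in the deep libraries. Syn3 itself held at most 3.35 CPM of unshared pairs. With them Timp3 reached 763, 806, 1966 and 843 CPM in the controls and 461, 1081, 1126 and 606 CPM in the TO lungs. Controls 1 and 2 exchanged places in the order of the lungs, the other 6 kept theirs with control 3 first, and the log2 difference in the 6 libraries was 0.22 (SE 0.21, edgeR adjusted p = 0.921).

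Mmp11 (chromosome 10, 75923222 to 75936496, minus strand) shares 5.58% of its exon bases with Chchd10 on the opposite strand, and the shared pairs were 31.8% to 52.7% of its counted and shared pairs together in the deep libraries. Counted with them, its log2 difference was 0.023 instead of -0.17. The lowest deep library was then control 1 (64.9 CPM), followed by TO 3 (75.1 CPM) and control 3 (75.2 CPM). The share was lowest in control 1 and highest in control 3. Since the libraries carry no strand, the strand columns cannot tell which overlapping gene gave a shared pair, for Mmp11 as for Timp3. For Timp3, unshared pairs in the deep libraries were 0.492 to 3.35 CPM on Syn3 and 342 to 1044 CPM on Timp3. Adam17 (chromosome 12, 21323509 to 21373632, minus strand) had 3.12% to 5.86% of its counted and shared pairs on the overlap with Iah1. For the other 7 members the strand columns moved the count by at most 0.213%.

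**Figure D4:**
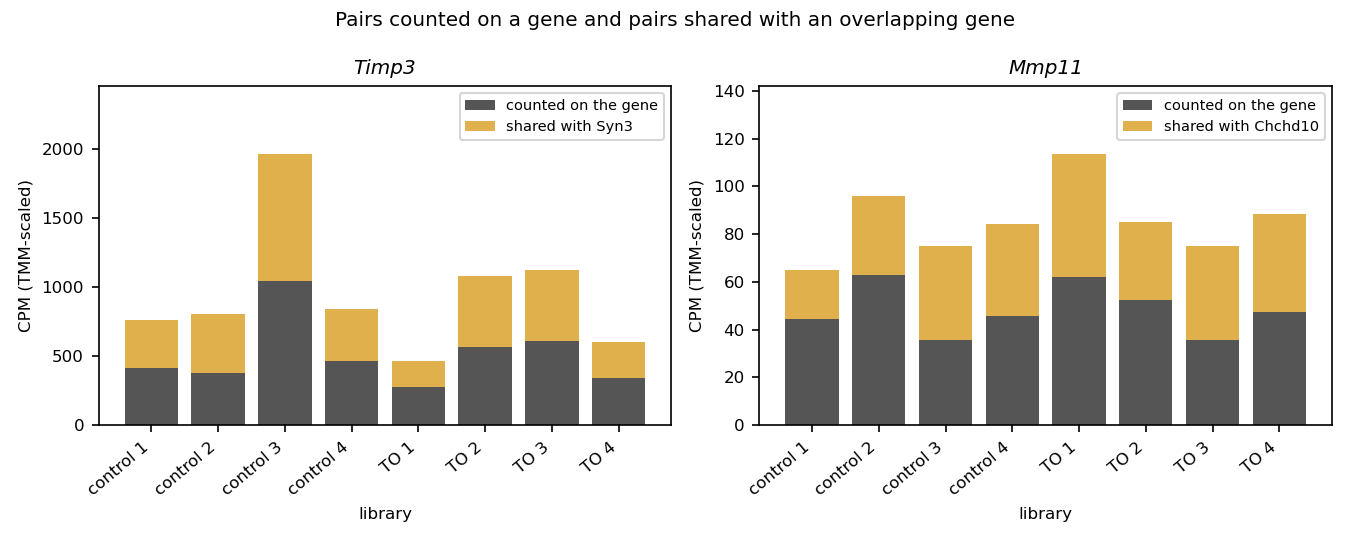
CPM (y axis) of Timp3 and Mmp11 in each library (x axis), split into pairs counted on the gene (grey) and pairs shared with the overlapping gene on the other strand (yellow). In the deep libraries the shared pairs were 43.5% to 53.4% of the Timp3 bar and 31.8% to 52.7% of the Mmp11 bar.

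Per kilobase of exon, the mean level over the 7 deep libraries was highest for Mmp2 at 101 ± 19.5 CPM per kb (SD, n = 7). Timp3 followed with 66.9 ± 29.5, Adamts1 with 63.5 ± 28.8, Mmp14 with 60.9 ± 5.34 and Timp2 with 48.4 ± 4.49 CPM per kb. Adam17 (21.8), Mmp15 (21.4) and Mmp11 (16.7) formed a lower tier, and Mmp23 (6.74) and Timp1 (4.57) were last. These levels rest on counted pairs. The order within the lower tier was not recomputed with the shared pairs of Mmp11 and Adam17, and is not established. The ranges of neighbours overlapped everywhere except between Timp2 and Adam17 and between Mmp11 and Mmp23. Mmp2 ranked first in 7 of 8 libraries and 3 in control 3, and Mmp23 and Timp1 ranked 9 and 10 in the 7 deep libraries. In TO 1, where Timp1 had no pair, their order is not established. With the shared pairs included, Timp3 averaged 126 ± 55.5 CPM per kb and ranked first in 3 of the 8 libraries, control 3, TO 2 and TO 3.

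The summed level per kilobase of the 3 TIMPs was set against that of the 5 MMPs, as a description of each lung. The ratio was 0.502, 0.408, 1.02 and 0.526 in controls 1 to 4 and 0.376, 0.556, 0.716 and 0.458 in TO 1 to 4. Control 3 had the highest ratio and TO 3 the second highest, and the groups overlapped. Timp3 made up 71.0% of the TIMP sum in control 3 and 41.4% to 63.4% in the other lungs. With the shared Timp3 pairs the ratio ran from 0.488 in TO 1 to 1.66 in control 3.

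The other genes of the protease network were read from 5 lists of 66 genes, of which 57 were tested. None had an adjusted p under 0.1 in edgeR, 35 had a log2 fold change above 0, 6 had an unadjusted p under 0.05 and 2 were called by DESeq2, where 49.3%, 5.14% and 0.239% of all genes did so. Both DESeq2 calls were MMPs known to be stored in neutrophil granules. Mmp8, neutrophil collagenase, was at 2.80, 2.40, 3.53 and 2.10 CPM in the controls and 0, 5.96, 15.3 and 15.8 CPM in the TO lungs. Mmp9, a gelatinase like Mmp2, was at 2.50, 2.40, 4.07 and 2.14 CPM in the controls and 44.8, 11.2, 6.69 and 10.6 CPM in the TO lungs. Every TO lung exceeded every control for Mmp9, and every deep TO lung did for Mmp8, whose value of 0 in TO 1 allows up to 10.3 CPM. The Mmp9 value in TO 1 rests on 13 pairs. Of all genes tested, 0.710% had every TO lung above every control in 8 libraries, and 2.25% did in the 7 deep ones.

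For Mmp8 the log2 fold change was 2.34 (SE 0.38), with an adjusted p of 3.61e-06 in DESeq2 and 0.760 in edgeR. For Mmp9 it was 2.02 (SE 0.29), with an adjusted p of 1.49e-06 in DESeq2 and 0.372 in edgeR. With 7 libraries the fold changes were 2.19 and 1.77, with an edgeR adjusted p of 0.9998 for both. In the 6 libraries, keeping all genes of at least 1 pair brought the edgeR adjusted p to 0.00354 for Mmp8 and 0.00624 for Mmp9. Without TO 4 the edgeR adjusted p was 0.0937 for Mmp8 and 0.0780 for Mmp9. Leaving out any other of the 6 lungs gave 0.128 or more for Mmp8 and 0.120 or more for Mmp9. For both genes the adjusted p was 0.774 in limma-voom and 0.999985 in edgeR on all 8 libraries. With the replicate number as a block in the 6 libraries, the edgeR adjusted p was 0.00140 and 0.000327. In that fit control 1 and TO 3 have no partner, and the numbers were not established as pairs. With the specimen number as a block the edgeR adjusted p was 0.263 and 0.135. In DESeq2 on all 8 libraries, a fit added after the data were seen, it was 0.109 for Mmp8 and 0.0160 for Mmp9. The neutrophil marker S100a8 was at 9.33, 8.54, 5.31 and 4.44 CPM in the controls and 13.8, 11.0, 26.1 and 41.6 CPM in the TO lungs. Its TO 1 value rests on 4 pairs. The groups overlapped for the other listed neutrophil markers, S100a9, Ngp and Camp. S100a9 was at 12.2 CPM in TO 2, below controls 1 (14.9 CPM) and 2 (13.0 CPM). Summed CPM of 4 neutrophil markers was 14.5 to 37.4 in the controls and 32.0 to 123 in the TO lungs, all 4 had a log2 fold change above 0 in the 6 libraries, Camp had no pair in TO 1, and the part of these cells in the Mmp8 and Mmp9 values was not tested.

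**Figure D5:**
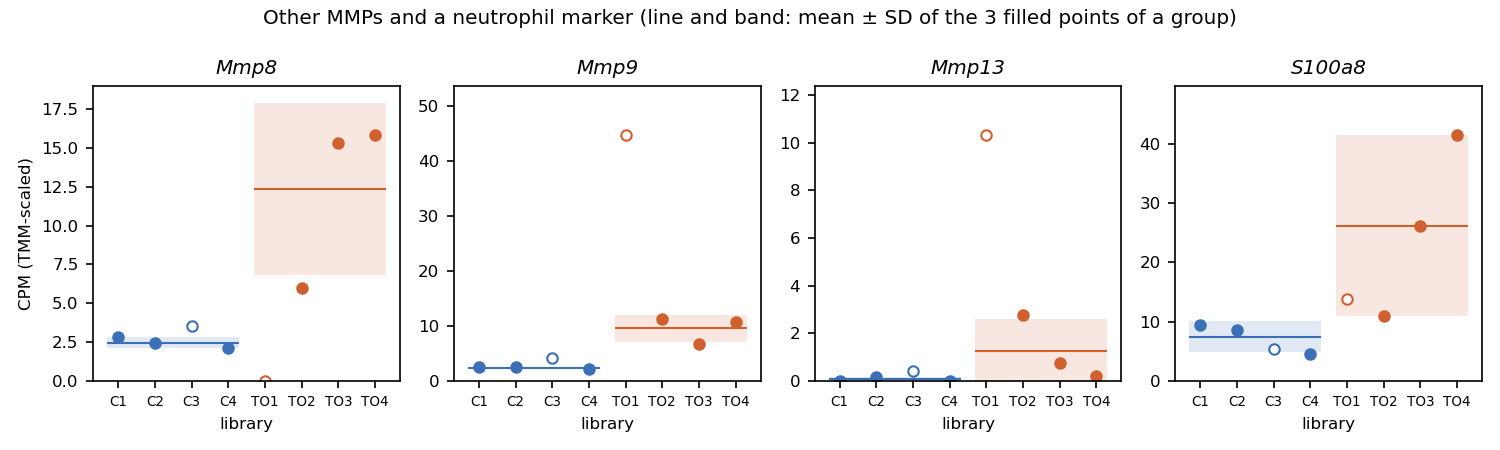
CPM (y axis) of Mmp8, Mmp9, Mmp13 and the neutrophil marker S100a8 in each library (x axis; C, control); filled points are the 6 libraries of the main comparison, open points control 3 and TO 1, and the line and band are the mean and SD of the 3 filled points of a group, cut at 0. The 3 deep TO lungs lie above all 4 controls for Mmp8 (5.96 to 15.8 CPM) and Mmp9 (6.69 to 11.2 CPM).

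Of the 18 other MMPs, 9 were tested, 8 had a log2 fold change above 0 and the median was 0.88, against -0.0045 over all genes. No pair was counted in any library for 4 of them. Mmp13, interstitial collagenase, had 0, 5, 12 and 0 pairs in controls 1 to 4 and 3, 95, 18 and 7 pairs in TO 1 to 4, with control 3 (0.403 CPM) above TO 4 (0.199 CPM). Its difference in the 6 libraries was not called (unadjusted p = 0.0133, edgeR adjusted p = 0.907). The abundant Mmp19 (14.4 CPM over the deep libraries) and Mmp28 (9.08 CPM) had log2 fold changes of 0.33 and -0.017 with adjusted p of 0.907 and 0.996 in edgeR. Per length, Mmp19 had 4.07, Mmp8 2.82, Mmp28 2.34 and Mmp9 1.60 CPM per kb, all below the 5 MMP members.

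Of the 18 other ADAMTS genes, all tested, 12 were above 0 with a median of 0.12, and 0 were called in either tool. Adamts5 and Adamts15, which like Adamts1 cut proteoglycans, had log2 fold changes of 0.43 (unadjusted p = 0.0494) and 0.45 (unadjusted p = 0.0296), with an edgeR adjusted p of 0.907 for both. Adding control 3 brought them to 0.19 and 0.074, in the direction in which it moved Adamts1. The most abundant, Adamts10, Adamts9 and Adamts17, had log2 fold changes of 0.24, -0.040 and 0.018, and of -0.049, -0.14 and -0.26 with all 8 libraries. Of 8 other catalytic ADAMs, 6 were above 0 with a median of 0.11 and none had an unadjusted p under 0.05. Adam10, the closest relative of Adam17, stood at -0.010, Adam9 at 0.095 and Adam19 at 0.12.

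Of 11 inhibitors, activators and partners, 5 were above 0 with a median of -0.0069. Furin, the convertase that removes the propeptide of Mmp14, Mmp11 and Adam17, had a log2 fold change of 0.24 (SE 0.099, unadjusted p = 0.0368, edgeR adjusted p = 0.907), and 0.16 when control 3 was added. Bsg and Lrp1, an inducer of MMPs and a receptor that clears them, were at -0.011 and 0.17, and at -0.25 and -0.063 with control 3. Of 11 substrates, 4 were above 0 with a median of -0.058 and none had an unadjusted p under 0.05. Elastin (Eln), the most abundant substrate, was at 0.58 (SE 0.28, edgeR adjusted p = 0.907) and went to 0.13 with control 3 and -0.12 with all 8 libraries. Col4a1 was at 0.13 and, with control 3, at -0.065, while Fn1 was at -0.0027 and -0.068.

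By the pattern over the 7 deep libraries, each member was compared with the other genes of at least 10 CPM, 10766 for Timp1, which is itself below that level, and 10765 for the rest. The genes most like Timp3 in log2 CPM were Col4a1 (r = 0.998) and Lamp2 (r = 0.995), and those most like Adamts1 were Cop1 (r = 0.996) and Rras (r = 0.990). For Adam17 they were Snx4 (r = 0.997) and Larp1b (r = 0.995), and for Mmp2 Homer3 (r = 0.993) and Polr2g (r = 0.989). Mmp14 was most like Eid1 (r = 0.991) and Antxr1 (r = 0.970). For 4 other members the pairs were Rbck1 and Tsta3 for Mmp11, Gprasp2 and Chic1 for Mmp15, Gprasp1 and Mrps28 for Mmp23, and Psmb5 and Dagla for Timp1, with r between 0.963 and 0.987. These are the highest of many correlations over 7 points, and they describe likeness only. Control 3 was the lowest or the highest of the 7 points for each of these members but Mmp15, whose extremes were TO 3 and TO 4.

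Promoter sequences, of 250 bases before to 50 after the start, were matched by symbol in the RefSeq table (GRCm38.p6) for 9 members, and no entry was matched for Mmp2. Each was searched on both strands for 4 short motifs. One was the GC box that Sp1 binds, spelled GGGCGG. Another was the TATA box near transcription starts, spelled TATAAA. The site of TEAD factors, the partners through which the regulator Yap reaches genes, was spelled GGAATG. The AP-1 site was searched by the letters TGANTCA. The 9 members have 10 promoters in the table, since Mmp23 has an upstream and a downstream start. A GC box was found in 9 of the 10 promoters, the exception being the upstream one of Mmp23, and in 35.7% of all 32851 promoters. Adamts1 alone held a TATA box (13.6% of all promoters), Timp1 alone the TEAD letters (14.7%), and none held the AP-1 letters (7.81%). Shown are the 100 bases before the start of Adamts1, the member with a TATA box (chr16:85803114-85803213, minus strand), and of Mmp14, the least variable member, which has adjoining GC boxes (chr14:54431498-54431597, plus strand), and the 100 bases that begin 250 before the start of Timp1, with the TEAD letters (chrX:20869916-20870015, plus strand); capitals mark GC box, TATA box and TEAD letters.
Adamts1: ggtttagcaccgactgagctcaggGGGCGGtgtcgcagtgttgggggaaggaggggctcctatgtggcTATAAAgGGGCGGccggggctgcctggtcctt
Mmp14: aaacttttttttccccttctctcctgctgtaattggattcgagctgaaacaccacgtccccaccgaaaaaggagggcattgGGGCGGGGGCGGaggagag
Timp1: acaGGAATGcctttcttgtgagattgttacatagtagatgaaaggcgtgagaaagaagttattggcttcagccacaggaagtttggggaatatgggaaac

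In the Adamts1 window the TATA box stands just before a GC box. The GC boxes of Timp3, whose levels across lungs resembled those of Adamts1, stand on both sides of its start. No binding was measured, and a match is a description of the letters only.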

How the data were processed

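Per the labels and the study's methods, RNA of single lungs was made into Nextera XT libraries, sequenced as read pairs, and aligned by the authors to GRCm38 (mm10) with STAR, whose deposited gene counts are raw and not normalized. The column counted without strand was used; the strand columns hold 49.9% to 50.1% of pairs each, so the libraries carry no strand. Identifiers were matched to GENCODE M21 (55144 of 55385). The column's summary lines (3.31% to 3.82% unmapped, 3.76% to 4.28% multimapping, 9.64% to 14.9% on no gene, 5.00% to 5.74% ambiguous) stayed out of library sizes. Genes with 5 or more pairs in 3 or more libraries were fitted with edgeR 4.0.16 (TMM, quasi-likelihood F test, Benjamini-Hochberg over all genes, threshold 0.1) in R 4.3.3; the 6 libraries are those the study analysed, identified by specimen names. DESeq2 1.42.0 and limma 3.58.1 were alternatives, and the code was tested on simulated data. Standard errors were taken from the log2 fold change and its F. CPM used TMM-scaled totals; likeness used log2 CPM with a prior count of 2, and that of Timp2 is not reported here. All 10 members are named; of each list, the 3 most abundant genes and those called, or with an unadjusted p under 0.05 in edgeR, are. The members and lists were chosen with earlier results of these data known. The Poisson interval and the floor given for TO 1 cover counting error only, and the intervals of fold changes come from the edgeR fit.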

Additional observations from a re-analysis of the deposited data

Results flagged for a closer look

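Each member was examined for a single lung standing apart from the other 3 of its group (Dixon's test at the 95% level). In 20 such groups, 2 were found, and chance alone gives about 1 in 20. Timp3 in control 3, at 1044 CPM, stood apart from the nearest of the other controls by 0.871 of the group's range. Adamts1 in control 3, at 669 CPM, stood apart by 0.912 of it. Both values come from the same library, and neither entered the fit to 6 libraries.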

How the results depend on the processing

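No member was called under any of the 24 alternatives, and the smallest adjusted p of a member was 0.194 (Timp3 without TO 4). The number of genes called among all tested was 0 in edgeR, 44 with DESeq2, 40 with no filter beyond 1 read, and 0 to 144 when 1 lung was left out (52 without control 4, 144 without TO 4). The median log2 fold change of the members, -0.068, ran from -0.16 (without TO 4) to 0.049 (without TO 3) when 1 lung was left out, and was 0.019 on the first strand column.

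The direction of several members changed with the libraries. With control 3 added (7 libraries) it was 0.10 for Timp1, -0.18 for Timp3, -0.20 for Adamts1 and -0.067 for Adam17, and with length and GC offsets in those 7 it was 0.032 for Mmp23, 0.16 for Timp1, -0.18 for Timp3, -0.22 for Adamts1 and -0.080 for Adam17. With all 8 libraries it was 0.0042 for Mmp11, 0.024 for Mmp23, 0.013 for Timp1, -0.34 for Timp3, -0.28 for Adamts1 and -0.10 for Adam17. Leaving out 1 of the 6 lungs gave -0.28 to 0.022 for Mmp2, -0.29 to 0.0068 for Mmp11, -0.081 to 0.21 for Mmp15, -0.31 to 0.15 for Timp1 and -0.13 to 0.076 for Timp2. The first strand column gave 0.032 for Mmp11 and 0.0055 for Timp2. The sum of both strand columns, chosen like the offsets after the data were seen, gave 0.023 for Mmp11 in 6 libraries and, in all 8, 0.13 for Mmp11, 0.024 for Mmp23, 0.015 for Timp1, -0.41 for Timp3, -0.28 for Adamts1 and -0.12 for Adam17. The cause was not tested.

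Control and TO lungs share replicate numbers in the labels, but the numbers were not established as pairs. Same-numbered lungs had deviations that correlated over genes by 0.058, 0.13, 0.16 and 0.073 for numbers 1 to 4. Without TO 1 the values were 0.12, 0.21 and 0.12 for numbers 2 to 4. In those 7 libraries control 1 and TO 4, which share only the specimen number, correlated by 0.17. Control and TO lungs of different specimen numbers had correlations of -0.19 to 0.020. The fit with the replicate number as a block called 3 genes in all 8 libraries and 219 in 6, where control 1 and TO 3 have no partner and add nothing, and no member in either; its median over the members in 6 libraries was 0.056. This block gave 0.0092 for Mmp11, 0.061 for Mmp23, 0.084 for Timp1, -0.29 for Timp3, -0.17 for Adamts1 and -0.097 for Adam17 in 8 libraries, and 0.0017 for Mmp14, 0.20 for Timp1 and 0.082 for Timp2 in 6. A block by the specimen number called 1 gene in 7 libraries and had a median over the members of 0.028 in 6. It gave 0.13 for Timp1, 0.099 for Timp2 and -0.011 for Adam17 in 6 libraries, 0.055 for Mmp23, 0.17 for Timp1, -0.20 for Timp3, -0.17 for Adamts1 and -0.098 for Adam17 in 7, and 0.00093 for Mmp11, 0.073 for Mmp23, 0.095 for Timp1, -0.28 for Timp3, -0.17 for Adamts1 and -0.10 for Adam17 in 8.

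TO 1 holds 270078 pairs, so that members under 10.3 CPM, here Timp1, could not be measured in it.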
